A study of Strigamia maritima with 9 samples.

Results

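The regions described here are the stretches of *Strigamia maritima* scaffold sequence to which all 3 methyl-CpG binding domains of a centipede Copia retrotransposon family bound on native DNA. They were chosen on the deposited peak calls. The native-DNA peaks of CopiaMBD1, CopiaMBD2 and CopiaMBD3 were pooled, intervals overlapping by at least 1 bp were merged, and a merged region was kept if it held a peak of each domain and lay on a sequence with a JH name. This left 2600 common regions of 13689 native regions on scaffolds (19.0%) and of 21205 native regions in all (12.3%). Because presence in the 3 native lists chose the regions, every native-DNA value below is a description, with no test.

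In DNA affinity purification sequencing (DAP-seq) a protein made outside the cell is offered sheared genomic DNA, and the DNA it holds is sequenced. Each domain was fused to HaloTag, a protein tag that binds beads covalently, and was translated in vitro. The groups used were CopiaMBD1, CopiaMBD2 and CopiaMBD3 on native DNA, and CopiaMBD1, CopiaMBD2 and CopiaMBD3 on DNA put through 11 PCR cycles before binding (ampDAP-seq). HaloTag alone on each kind of DNA was the control. All used DNA of adult animals of the strain that gave the genome sequence, sheared to a mean of 200 bp and amplified for 20 cycles after purification. The assay shows binding to naked DNA by an isolated domain, without chromatin and without the rest of the retrotransposon protein, and the labels name no tissue beyond adult.

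A methyl-CpG binding domain is a small fold that, in several vertebrate proteins, recognises cytosines methylated within CpG dinucleotides. Copia elements are retrotransposons with long terminal repeats that copy themselves through RNA. PCR copies the bases of DNA and not its methyl groups, so native DNA carries the animal's methylation and amplified DNA by design does not. The methylation of either DNA was not measured in the files used here.

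Each combination of domain and DNA was 1 library, so no group had a replicate and all statements are about these libraries. Native libraries kept 2044955 to 2239324 tags and amplified-DNA libraries 3488873 to 3772201. Their HaloTag-only controls kept 4050757 and 3685424. The native lists held 4482, 8698 and 10069 scaffold peaks for CopiaMBD1, CopiaMBD2 and CopiaMBD3, and the amplified-DNA lists 316, 108 and 122. Fold enrichment is throughout the authors' ratio of summit pileup to the local HaloTag-only level. Intervals on shares are exact Clopper-Pearson 95% intervals and cover counting error only. They treat the peaks or regions of 1 library as independent, which neighbours on a scaffold need not be. Reads copied by PCR were not tagged per molecule, and 1 tag was kept per position. Intervals on medians are exact binomial 95% intervals over regions, which are not replicates of a condition.

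Most common regions were plain. In 2201 of the 2600 (84.7%) there was exactly 1 peak of each domain, and in 30 there was more than 1 peak of every domain. CopiaMBD2 most often had several peaks in a region (219 regions), followed by CopiaMBD1 (180) and CopiaMBD3 (157). Together the regions held 2803 CopiaMBD1, 2845 CopiaMBD2 and 2766 CopiaMBD3 peaks and covered 1166 kb, 0.672% of the effective genome size used for peak calling.

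The median common region was 365 bp wide (95% interval 356 to 374, interquartile range 276 to 526). Scaffold regions with peaks of 2 domains had a median width of 254 bp and those of 1 domain 172 bp, an order that merging several intervals favours by construction. Widths of at least 1000 bp were found for 130 common regions (5%), 12 of 3630 regions of 2 domains and 0 of 7459 regions of 1 domain, for which the limit of 3 counts in the total is 0.0402%. Within a common region the CopiaMBD3 peaks covered the most sequence, a median of 88.8% of its width, against 81.8% for CopiaMBD2 and 66.4% for CopiaMBD1. A stretch covered by all 3 domains at the same bases was present in 2542 regions (97.8%), with a median length over all regions of 174 bp. The other 58 regions were chains, in which the 3 domains were linked end to end without a base in common.

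The 5 widest regions show how such stretches were built. The region on JH429684 (44517 to 46684) measured 2168 bp and joined 4 CopiaMBD1, 3 CopiaMBD2 and 2 CopiaMBD3 peaks, of which 820 bp lay under all 3 domains. On JH431198 (209253 to 211361) a CopiaMBD3 peak of 2109 bp, as long as the region itself, spanned 2 CopiaMBD1 and 2 CopiaMBD2 peaks. The regions on JH430833 (14635 to 16550), JH431789 (348280 to 350097) and JH430584 (42227 to 43988) likewise held 1 CopiaMBD3 peak each, with 2 or 3 CopiaMBD1 and 2 CopiaMBD2 peaks. None of the 5 was among the 10 regions whose weakest domain had the highest fold. Their folds ran between 4.58 and 6.30 for CopiaMBD1, 6.22 and 9.07 for CopiaMBD2, and 5.58 and 12.5 for CopiaMBD3.

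The strongest summits of the 3 domains mostly lay close together, which the overlap rule favours by construction. For each region the strongest peak of each domain was taken. The distance between the outermost of its 3 summits had a median of 64 bp (61 to 68). The fragment length the peak caller estimated for the native libraries was 140 to 145 bp. A region was kept only where peaks overlapped or chained, so the rule limits this distance and nothing is read from it. All 3 summits lay within 20 bp of each other in 330 regions (12.7%), within 50 bp in 1061 (40.8%) and within 100 bp in 1720 (66.2%).

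Offsets were signed by scaffold coordinate. Scaffold orientation is arbitrary, so their centre does not bear on whether a domain sat to a fixed side of another at its site. The median offset was 0 bp for CopiaMBD2 minus CopiaMBD1, for CopiaMBD3 minus CopiaMBD1 and for CopiaMBD3 minus CopiaMBD2, each with an interval of -2 to 2 bp. The interquartile ranges of those offsets were -37 to 39, -36 to 39 and -37 to 36 bp. The middle of the 3 summits was that of CopiaMBD1 in 865 regions, of CopiaMBD2 in 864 and of CopiaMBD3 in 871. The median distance between summits was 38 bp for CopiaMBD2 against CopiaMBD1, 38 bp for CopiaMBD3 against CopiaMBD1 and 36.5 bp for CopiaMBD3 against CopiaMBD2.

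**Figure D1:**
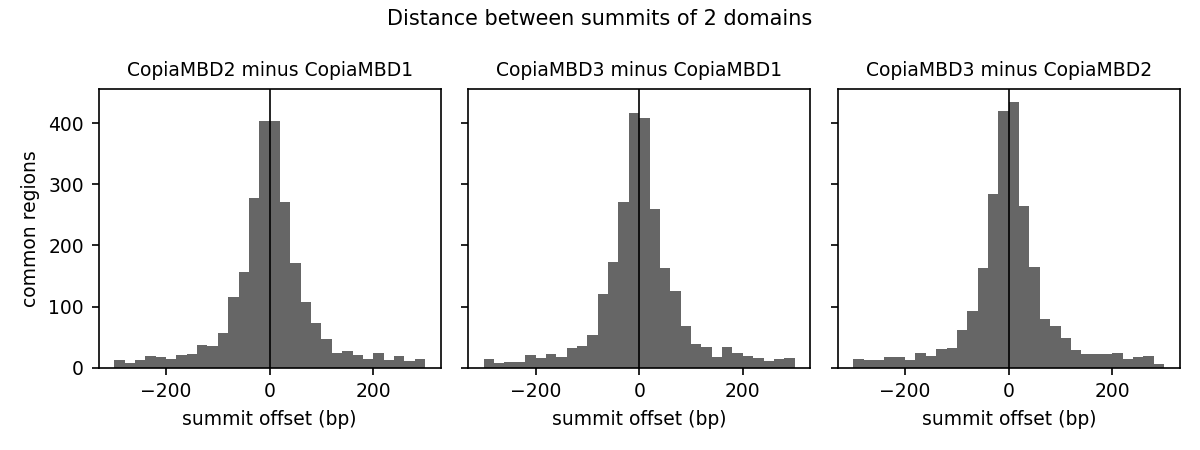
Offsets in bp between the strongest summits of each pair of domains across the 2600 common regions, in bins of 20 bp; the vertical axis counts regions and the line marks 0. The offsets are centred on 0 in all 3 pairs, and the 145, 130 and 147 regions with summits more than 300 bp apart, from left to right, fall outside the plots.

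The closest summits were within 1 bp. On JH431760 (9882 to 10134) CopiaMBD1, CopiaMBD2 and CopiaMBD3 peaked at 10005, 10006 and 10005, at folds of 5.92, 9.30 and 8.27. The region on JH429818 (4640 to 5548) had summits at 4762, 4763 and 4763 and folds of 5.23, 10.02 and 9.81. On JH432130 (192125 to 192698) the summits were at 192450, 192449 and 192450, and the folds were 3.13 for CopiaMBD1, 4.23 for CopiaMBD2 and 11.4 for CopiaMBD3. The spread had medians of 39 bp in regions under 300 bp, 71 bp from 300 to under 500 bp, 179 bp from 500 to under 1000 bp and 358.5 bp at 1000 bp or more. Summits lie inside their region and merging offset peaks widens it, so this rise is favoured by construction. In the widest class only 17 of 130 regions had 1 peak of each domain, so the strongest peaks of different domains can be different peaks of a cluster.

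Median fold enrichment was highest for CopiaMBD3 and lowest for CopiaMBD1. The highest fold per region had a median of 4.49 for CopiaMBD1 (interquartile range 3.73 to 5.43), 5.37 for CopiaMBD2 (4.18 to 6.97) and 6.47 for CopiaMBD3 (4.92 to 8.39). A fold of at least 5 was reached by 33% of regions for CopiaMBD1, 57.3% for CopiaMBD2 and 72.4% for CopiaMBD3. Among all scaffold peaks of the same lists 26.3, 37.5 and 52% did so, and nothing is read from this since the native calls chose the regions. All 3 folds reached 5 in 529 regions (20.3%) and 10 in 7 regions. At the other end, the lowest of the 3 folds had a median of 3.98 and a minimum of 1.54.

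Peaks inside common regions were stronger, taller and wider than the other scaffold peaks of the same list. Median fold was 4.43 in common regions and 4.18 elsewhere for CopiaMBD1, 5.23 and 4.29 for CopiaMBD2, and 6.31 and 4.91 for CopiaMBD3. Median summit pileup was 17 fragments in common regions and 14 elsewhere for CopiaMBD1, 20 and 15 for CopiaMBD2, and 23 and 16 for CopiaMBD3. Median peak width was 215 bp in common regions and 173 bp elsewhere for CopiaMBD1, 260 and 181 bp for CopiaMBD2, and 284 and 188 bp for CopiaMBD3. The HaloTag-only level at the summit, as a multiple of the lowest such level in each list, was also higher in common regions, with medians of 1.61 and 1.25 for CopiaMBD1, 1.68 and 1.34 for CopiaMBD2, and 1.71 and 1.36 for CopiaMBD3. That lowest level is a genome-wide background floor of the peak call and not a local HaloTag-only reading. The part of the control level in the differences was not tested.

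**Figure D2:**
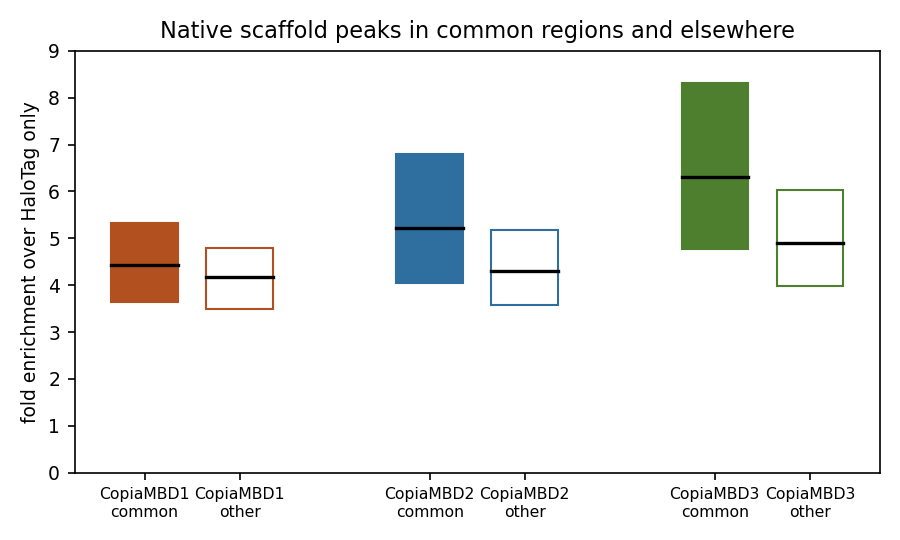
Fold enrichment over HaloTag only for native scaffold peaks in common regions (filled boxes) and for the other scaffold peaks of the same list (open boxes). Boxes span the interquartile range and black lines mark medians, which are 4.43 and 4.18 for CopiaMBD1, 5.23 and 4.29 for CopiaMBD2, and 6.31 and 4.91 for CopiaMBD3.

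The share of each list that lay in common regions depends on list length by construction. Every region holds at least 1 peak of each domain, so the peaks taken were near equal, at 2803, 2845 and 2766. The scaffold lists they came from held 4482, 8698 and 10069 peaks. They held 62.5% of CopiaMBD1 scaffold peaks (61.1 to 64.0), 32.7% of CopiaMBD2 peaks (31.7 to 33.7) and 27.5% of CopiaMBD3 peaks (26.6 to 28.4), in the reverse order of list length. With the 7461 strongest peaks of each list by q-value, the shares were 35.7, 36.2 and 34.1%, near equal by the same rule. Nothing about the domains is read from the order of these shares.

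Each list was also split by fold into 4 classes of like size, and the highest class lay most often in common regions. For CopiaMBD1 58.5% of the lowest class and 74.6% of the highest were in common regions, for CopiaMBD2 21.5 and 54.5%, and for CopiaMBD3 16.7 and 50.1%. Of the 100 scaffold peaks of highest fold, 92 were in common regions for CopiaMBD1, 87 for CopiaMBD2 and 83 for CopiaMBD3. Peak width, split in the same way, gave a wider range. The narrowest and widest classes had 42.6 and 83.5% of peaks in common regions for CopiaMBD1, 13.8 and 59.5% for CopiaMBD2, and 9.59 and 54.6% for CopiaMBD3. A wider peak has more bases with which to meet another, and the part of width in these shares was not tested.

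**Figure D3:**
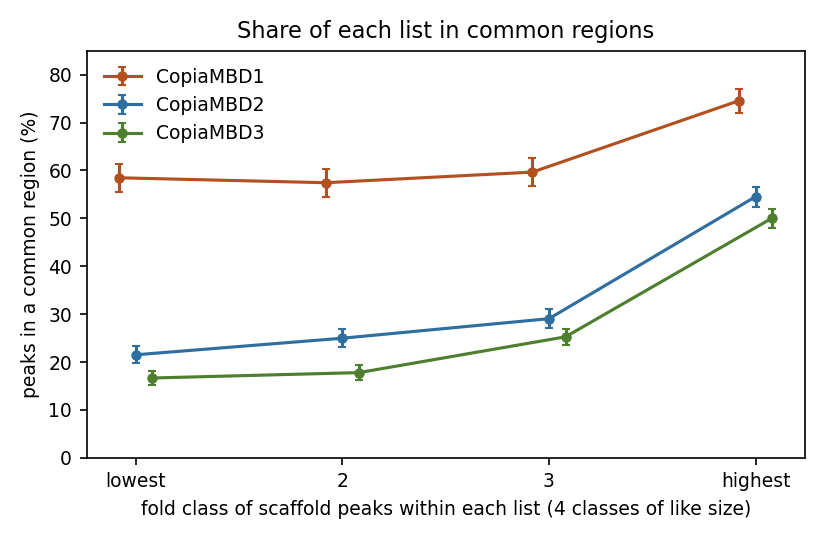
Share of native scaffold peaks that lie in a common region, by class of fold enrichment within each list (4 classes of like size), with exact 95% intervals. CopiaMBD1 lies above the other domains in every class, with 58.5% in the lowest and 74.6% in the highest, while CopiaMBD2 and CopiaMBD3 reach 54.5 and 50.1% in the highest class. The CopiaMBD1 list is the shortest, so its overall share is the highest by construction.

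Ranked by the fold of their weakest domain, the top 10 regions were compact, between 215 and 549 bp wide, and 9 of them held 1 peak of each domain. The leading region, on JH431035 (14484 to 14795), had summit pileups of 46, 69 and 72 fragments for CopiaMBD1, CopiaMBD2 and CopiaMBD3 and folds of 14.4, 21.8 and 23.3. There all 3 summits fell between 14633 and 14668. On JH430550 (18448 to 18662) the folds were 13.7, 13.3 and 16.3, with summits at 18559, 18542 and 18549. On JH430497 (682 to 1000) they were 11.8, 17.9 and 15.6, so here CopiaMBD2 led.

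Among the next of the 10, CopiaMBD3 had the highest fold at several regions. On JH431656 (8966 to 9307) the folds of CopiaMBD1, CopiaMBD2 and CopiaMBD3 were 11.6, 17.2 and 22.3, with pileups of 34, 68 and 66 fragments. On JH431483 (118234 to 118503) the folds were 11.3, 11.5 and 22.9 and the pileups 56, 57 and 91. On JH431330 (5225 to 5773) the folds were 11.3, 10.2 and 19.6 and the pileups 33, 40 and 51. The region on JH432155 (13659 to 14155) had folds of 12.0, 11.4 and 10.6 and was led by CopiaMBD1.

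The remaining 3 had their lowest fold just under 10. Folds were nearly equal on JH430757 (4274 to 4642), at 10.3, 10.4 and 9.64, and on JH431861 (1020 to 1323), at 9.63, 9.66 and 10.3. On JH431986 (3562 to 3921) they were 9.63, 16.3 and 11.3. The spread of the 3 summits was 8 to 52 bp across the 10 regions.

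The folds of the 3 domains were also compared by their place in each scaffold list. No count expected for unrelated folds was computed, so the counts here are not read as few or many. All 3 folds were in the top 10% of their scaffold lists in 105 regions (4.04%). All 3 were above their list's median in 890 (34.2%) and all 3 at or below it in 231 (8.88%). In 471 regions (18.1%) at least 1 domain was in its top 10% while another was at or below its list's median. Across the 2600 regions Spearman's rho of fold was 0.31 for CopiaMBD2 with CopiaMBD1, 0.27 for CopiaMBD3 with CopiaMBD1 and 0.35 for CopiaMBD3 with CopiaMBD2. These points share the HaloTag-only library and their positions. Over regions with the minimum control level in the pair of lists compared, rho was 0.46 over 190 regions, 0.43 over 191 and 0.47 over 185 for the same pairs.

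Which domain led varied from region to region. CopiaMBD3 had the highest fold in 1588 regions (61.1%, 59.2 to 63.0), CopiaMBD2 in 756 (29.1%) and CopiaMBD1 in 256 (9.85%). The order CopiaMBD3, CopiaMBD2, CopiaMBD1 was the commonest of the 6 possible, with 1044 regions (40.2%), and the order CopiaMBD1, CopiaMBD2, CopiaMBD3 the rarest, with 110. A lead of at least 1.5 times over both other domains was seen in 527 regions for CopiaMBD3, 143 for CopiaMBD2 and 27 for CopiaMBD1. Each fold was also ranked within its own scaffold list, and CopiaMBD3 then led in 41.6% of regions, CopiaMBD2 in 35.3% and CopiaMBD1 in 23.1%. These ranks depend on how much of each list the common regions took. That was 62.5% for CopiaMBD1, 32.7% for CopiaMBD2 and 27.5% for CopiaMBD3. The more of a list is taken, the nearer its ranks must lie to the middle, so ranking does not make the lists comparable.

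The control level enters the fold as its divisor, so picking the domain of highest fold favours a low control in that domain's list by construction. Per the file headers, each peak call drew its own random sample of the HaloTag-only library. In regions led by CopiaMBD1 the median control level was 1.25 times its minimum in the CopiaMBD1 list, 2.05 in the CopiaMBD2 list and 2.44 in the CopiaMBD3 list. In regions led by CopiaMBD2 it was 1.61, 1.26 and 1.83 in the same lists, and in those led by CopiaMBD3 1.61, 1.68 and 1.36. Summit pileup per 1000000 tags kept, which has no control in it, was highest for CopiaMBD3 in 1852 regions (71.2%), for CopiaMBD2 in 625 (24.0%) and for CopiaMBD1 in 123 (4.73%). By that measure CopiaMBD3 still led in 1430 of its 1588 regions (90.1%), CopiaMBD2 in 447 of its 756 (59.1%) and CopiaMBD1 in 72 of its 256 (28.1%).

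The regions with the widest lead, chosen after their values were seen, illustrate both measures. On JH429961 (4432 to 4672) the folds of CopiaMBD1, CopiaMBD2 and CopiaMBD3 were 3.18, 2.61 and 12.3, and the pileups 31, 20 and 36 fragments. Its control levels were 4.84, 3.92 and 1.22 times the lowest in the same lists. The CopiaMBD2 lead on JH431521 (17959 to 18372) had folds of 5.92, 16.1 and 3.79 and pileups of 16, 44 and 18, at control levels of 1, 1 and 2.44 times the lowest. On JH431830 (94885 to 95144) CopiaMBD1 had a fold of 6.40 against 2.39 for CopiaMBD2 and 3.21 for CopiaMBD3, but the pileups were 25, 23 and 28. The control level there was 1.64 times its lowest in the CopiaMBD1 list and 5.05 and 4.87 times in the CopiaMBD2 and CopiaMBD3 lists.

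Common regions were spread over 1081 of the 2071 scaffolds that held any native region. There was 1 common region on 538 scaffolds, 2 on 229 and at least 10 on 17, and those 17 scaffolds held 310 common regions. Scaffolds were sorted by the position their last peak reached, since their lengths were not given. Common regions were 20.0% of native regions where that position was under 10 kb, 20.1% from 10 to 100 kb and 17.1% at 100 kb or more.

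The 3 scaffolds with most common regions were long. JH432211 held 41 of them among 186 native regions, JH431789 held 37 among 186 and JH431830 held 34 among 104. That is 22.0, 19.9 and 32.7% of the native regions of each, at 8.74, 5.14 and 8.80 common regions per 100 kb. Together they held 112 common regions (4.31%).

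Neighbouring common regions lay a median of 4654 bp apart, centre to centre (interval 4080 to 5337, interquartile range 1541 to 14292, 1519 pairs). Of these pairs 15.4% were within 1 kb and 30.2% within 2 kb. Another native region of any kind lay within 2 kb of 75.1% of common regions (73.4 to 76.8), of 71.8% of regions of 2 domains (70.3 to 73.2) and of 63.7% of regions of 1 domain (62.6 to 64.8). The native region next along the scaffold was itself a common region in 24.1% of cases beside a common region (22.9 to 25.4), 19.1% beside a region of 2 domains (18.2 to 20.1) and 17.6% beside a region of 1 domain (16.9 to 18.3). Neighbours share a scaffold and are counted from both sides, so these intervals are too narrow, and no test was made.

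Linking common regions whose centres were at most 2 kb apart gave 262 runs of 2, 51 of 3, 19 of 4, 5 of 5, 1 of 6 and 2 of 7 regions. The shorter run of 7, on JH431539 (20787 to 27406), fitted into 6.62 kb. Its folds ran between 3.48 and 4.69 for CopiaMBD1, 4.38 and 9.17 for CopiaMBD2, and 2.99 and 8.66 for CopiaMBD3. The other run of 7, on JH430726 (918 to 7894), had folds between 2.49 and 6.94, 4.30 and 9.30, and 2.83 and 10.3 for the same domains.

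**Figure D4:**
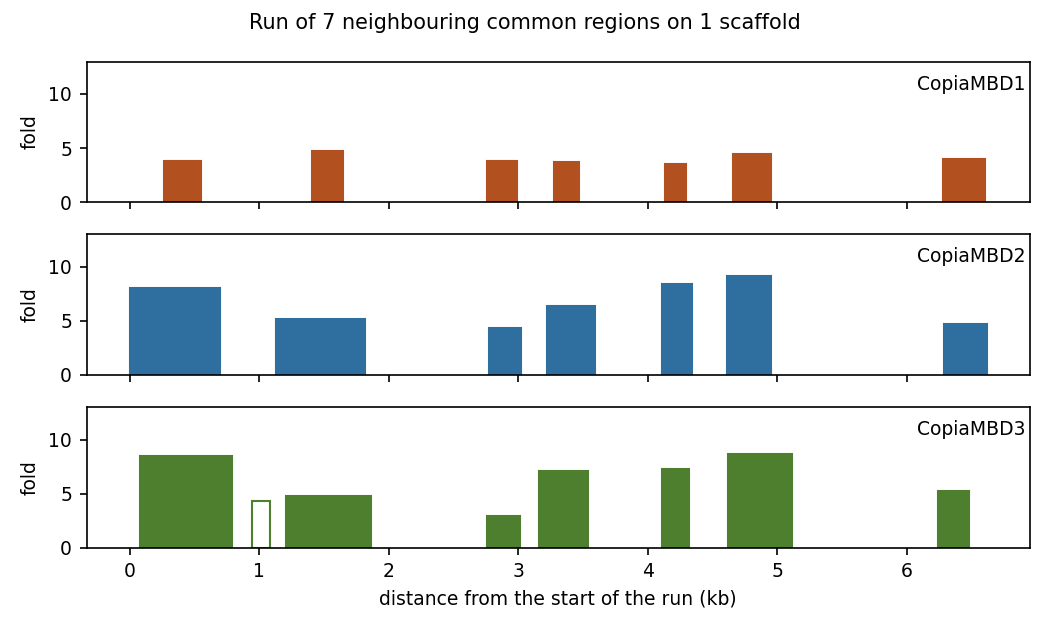
Native-DNA peaks of the 3 domains along the run of 7 common regions on JH431539; the horizontal axis is the distance from the start of the run in kb, bar width is peak width and bar height is fold enrichment over HaloTag only. The 7 filled positions recur in all 3 rows, CopiaMBD1 bars stay between 3.48 and 4.69, and the open bar is a CopiaMBD3 peak outside the common regions.

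Amplified DNA gave the readout that did not choose the regions. Of the 2600 common regions, 29 overlapped an amplified-DNA peak of any domain (1.12%, 0.748 to 1.6), against 0.57% of all native scaffold regions. By domain the counts were 9 for CopiaMBD1 (0.346%), 8 for CopiaMBD2 (0.308%) and 14 for CopiaMBD3 (0.538%), against 0.256, 0.146 and 0.212% of all native scaffold regions. Regions of 2 domains had a share of 0.634% (0.402 to 0.949) and regions of 1 domain 0.349% (0.228 to 0.510). Regions of all 3 domains on AFFK contigs had 1.38% (0.912 to 2.0).

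Per length the steps between the scaffold kinds were smaller. Per Mb of sequence covered, 24.9 common regions overlapped an amplified-DNA peak, against 21.7 regions of 2 domains and 18.2 of 1 domain. Regions of all 3 domains on contigs had 34.2. These rates rest on 29, 23, 26 and 27 regions and have no interval, so no order is read from them. The 29 regions had a median width of 460 bp, against 364 bp for the other 2571. Their median native control levels, relative to the lowest, were 1.79, 2.24 and 2.44 in the CopiaMBD1, CopiaMBD2 and CopiaMBD3 lists, against 1.61, 1.68 and 1.71 at the others. The part of width and control level in the difference between region kinds was not tested.

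**Figure D5:**
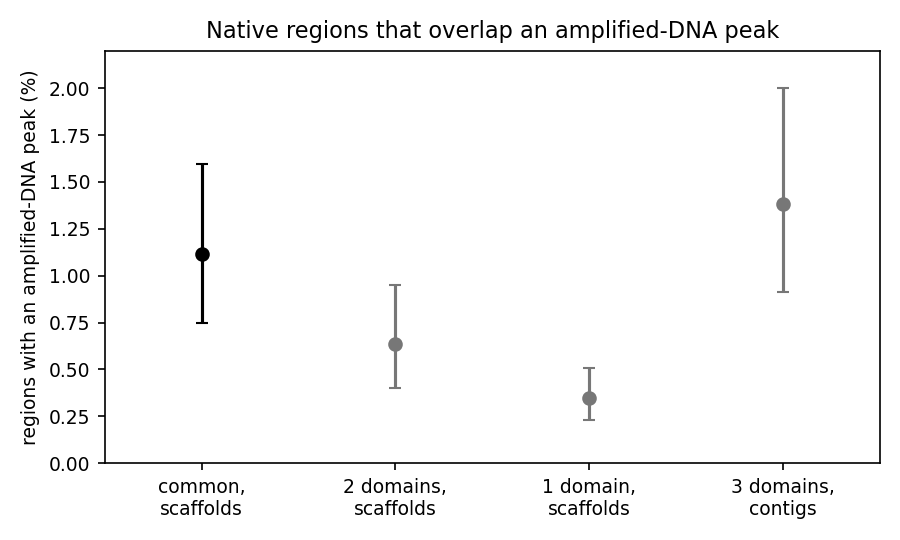
Share of native regions that overlap an amplified-DNA peak of any domain, for common regions on scaffolds, scaffold regions of 2 domains and of 1 domain, and regions of all 3 domains on contigs; points are percentages of regions and bars exact 95% intervals. Common regions on scaffolds stand at 1.12%, the scaffold regions of 2 domains and 1 domain at 0.634 and 0.349%, and contig regions at 1.38%.

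The 29 regions carried 32 amplified-DNA peaks, 5.86% (4.04 to 8.17) of the 546 amplified-DNA peaks on scaffolds. These were 9 of 316 for CopiaMBD1, 8 of 108 for CopiaMBD2 and 15 of 122 for CopiaMBD3. The amplified summit lay a median of 68 bp from the native summit of the same domain, within 50 bp for 15 of the 32 peaks. Median native folds were 4.93, 5.01 and 6.69 for CopiaMBD1, CopiaMBD2 and CopiaMBD3 at the 29, and 4.48, 5.37 and 6.46 at the other 2571.

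Amplified-DNA peaks of 2 domains met in 2 common regions, 0.0769% against 0.0438% of all native scaffold regions, and 0 common regions did so for every domain, for which the limit of 3 counts in the total is 0.115%. On JH430644 (648 to 899) native summits of CopiaMBD1, CopiaMBD2 and CopiaMBD3 stood at 764, 768 and 783 with 38, 50 and 55 fragments. The amplified-DNA summits of CopiaMBD1 and CopiaMBD3 stood at 771 and 769 with 35 and 32 fragments. On JH431405 (888 to 1347) native folds were 5.59, 4.97 and 3.92, and amplified-DNA folds 3.08 for CopiaMBD2 and 2.87 for CopiaMBD3. The native control level was 8.07 and 9.53 times its lowest at the CopiaMBD1 and CopiaMBD2 summits, 1082 and 1084. For CopiaMBD3, with 2 peaks in the region, the fold and the control level of 3.41 times belong to a summit at 1291. An amplified-DNA fold of at least 5 was found in 2 common regions (0.0769%, against 0.0438% of all native scaffold regions), JH430644 and, named after its value was seen, JH429903 (190588 to 190905), where CopiaMBD2 had 6.27 on native and 5.51 on amplified DNA.

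The overlap rule left few regions at its edge. Only 64 common regions (2.46%) were held together anywhere by under 50 bp. Not all depended on such a link, since 2585 common regions remained when 50 bp of overlap was required. The slightest links were 1 bp on JH429927 (5758 to 6301), where CopiaMBD1 had a fold of 3.47, CopiaMBD2 of 4.30 and CopiaMBD3 of 3.64, and 2 bp on JH430774 (7806 to 8417), with 4.49, 5.01 and 4.53. On JH430774 168 bp lay under all 3 domains, so the 2 bp only joined a further CopiaMBD3 peak. Just outside, CopiaMBD2 missed the region on JH431516 (89928 to 90156) by 2 bp and that on JH429775 (6605 to 6768) by 4 bp. CopiaMBD1 and CopiaMBD3 had folds of 3.98 and 5.48 on JH431516, and 4.18 and 4.15 on JH429775. Of the 3630 scaffold regions of 2 domains, 302 (8.32%) had a peak of the missing domain within 200 bp, and the missing domain was CopiaMBD1 in 2586 (71.2%).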

How the data were processed

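Per the file headers, the authors called peaks for each library with MACS2 2.1.0.20150731 at a q-value of 0.05 with HaloTag alone on that DNA as control, sampling the larger library down to the smaller, keeping 1 tag per position and taking local control levels over 1000 and 10000 bp. The deposited pileup is a coverage signal in fragments over the summit, the deposited fold enrichment is its ratio to the local control, and −log10 of the p-value and −log10 of the q-value are deposited for each summit. The aligner and genome build are not given in the sources used here. Positions are 1-based, as deposited, and genes, repeats and sequence at these positions are not analysed here. The MethylC-seq sample was not used.

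Intervals were merged with Python 3.11.15, numpy 2.4.6 and pandas 2.3.3, the number of regions was checked with bedtools 2.31.1, and the method was tested on simulated data. Intervals came from scipy 1.17.1 and plots from matplotlib 3.10.9. Each region was represented by the highest-fold peak of each domain. The control level at a summit was recovered as (pileup + 1) / fold − 1. Its lowest value was 1.87, 1.79 and 1.65 fragments in the native CopiaMBD1, CopiaMBD2 and CopiaMBD3 lists. These values match tags kept times fragment length over the effective genome size. A control level at its lowest is therefore this floor, and local HaloTag-only coverage there can be lower. Regions were named by rank: the 10 with the highest lowest fold, the 5 widest, the 3 with the closest summits, those with amplified-DNA peaks of at least 2 domains, those at the edge of the overlap rule, the 3 scaffolds with most regions and the longest run. The regions, and the rules and alternatives applied to them, were chosen with earlier results of these data known. Rankings by pileup per 1000000 tags, by percentile and by control level were added after the data were seen. With 1 library per group, no test between groups was made.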

Additional observations from a re-analysis of the deposited data

Results flagged for a closer look

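The HaloTag-only control, against which the peaks were called, was itself high at 16 common regions, where its level was at least 10 times the lowest in all 3 native lists. This is 0.615% of the 2600 regions (exact 95% interval 0.352 to 0.997), against 0.248% of scaffold regions of 2 domains and 0.174% of those of 1 domain, counted over the lists with a peak. The 16 regions lay on 16 scaffolds. They had median pileups of 118, 126 and 126 fragments for CopiaMBD1, CopiaMBD2 and CopiaMBD3 and median folds of 3.02, 3.13 and 3.24. The highest, on JH430106 (17193 to 17822), had pileups of 267, 263 and 266 fragments and control levels of 50.02, 50.45 and 49.35 times the lowest, with folds of 2.83, 2.88 and 3.24. It was named after its values were seen. How many copies of these sequences the DNA holds was not tested.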

How the results depend on the processing

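Requiring 50 bp of overlap left 2585 regions and moved no other result outside its interval. Keeping native peaks whose −log10 q reached 10 left 260 regions, with 54.6, 14.6 and 7.83% of CopiaMBD1, CopiaMBD2 and CopiaMBD3 scaffold peaks, 2.69% of regions with an amplified-DNA peak, a median width of 376.5 bp, a summit spread of 33 bp and a neighbour distance of 7469 bp. Native peaks with a fold of at least 5 gave 528 regions, 45.8, 16.8 and 10.5% of the lists, a spread of 43 bp and a distance of 7924 bp. Equal numbers of native peaks per list gave 1447 regions, 35.7, 36.2 and 34.1% of the lists, a width of 395 bp, a spread of 54 bp and a distance of 6134 bp. Scaffolds whose peaks reach 100 kb held 843 regions and 60.3, 31.3 and 24.9% of the lists, with a width of 402 bp, a spread of 76 bp and a distance of 9227 bp. All of these but the 50 bp rule used fewer peaks or scaffolds, by construction.

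The amplified-DNA share was 0.0769% with amplified-DNA peaks of fold at least 5 and, an alternative added after the data were seen, 0.714% of the 1962 regions with the control under 3 times its lowest in all 3 lists; the cause was not tested. Also added then, the spread was 56 bp in regions with 1 peak of each domain. CopiaMBD3 led in 71.2% of regions by pileup per 1000000 tags, 66.4% of the 125 regions with the control at its lowest in all 3 lists and 41.6% by percentile within its own list. In all, 13 of 47 alternative values stayed inside the interval, or for a count within 1.5 times, of the reported value. With 1 library per group, no leaving out of replicates was possible. No paired analysis was possible because every group held 1 library and no result comes from a test. Depth was not varied, and the lowest summit pileup in a common region was 8 fragments in each native list. The planned description of sequence and annotation was not run, since no genome of the files' build was used here.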
